A study of Saccharomyces cerevisiae and Saccharomyces cerevisiae S288C with 30 samples.

Results

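Splicing in meiotic budding yeast was compared between cells kept for 7.5 h and for 6 h in sporulation medium. Both groups were *Saccharomyces cerevisiae* of the strain SK1, with no mutation or drug named in the labels, and each had 2 libraries, given as biological replicates in the series design. RNA had been extracted with hot acid phenol, depleted of ribosomal RNA with the Ribo-Zero Gold kit and made into strand-specific libraries that were sequenced in 1 NextSeq lane. The measure was PSI, a share between 0.01 and 1 given with 2 decimals, for splicing events placed on the sacCer3 build. From its values, PSI reads as the share of transcripts that keep the intron, so a higher PSI is written here as higher retention. The sources used here do not define it. For alternative 3′ and 5′ splice sites (A3SS and A5SS) the direction of PSI is not given, and their values are reported as they stand. All events with a value in each of the 4 libraries were taken, which gave 235 of the 405 events in the table. They comprised 141 of 279 annotated introns, 75 of 98 unannotated introns, 16 of 21 A3SS events and 3 of 7 A5SS events.

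Few yeast genes hold an intron, and most of those that do hold a single short one. Genes for ribosomal proteins make up a large share of them. In meiosis a small set of transcripts depends on Mer1, a splicing activator made in meiotic cells, which acts with the U1 snRNP on an enhancer in the intron. Other introns of meiotic genes are spliced without it. Because a culture was measured in bulk, a shift in splicing within each cell and a shift in the share of cells at a given stage cannot be told apart. PSI also does not report how much of a transcript was present, so stage markers could not be checked by expression.

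Fewer events had a value at 7.5 h. The 2 libraries at 7.5 h had 273 and 280 values, against 363 and 374 at 6 h. Of the 359 events with values in both 6 h libraries, 74 had none in either 7.5 h library (20.6%). Among annotated introns these were 60 of 240. Their median PSI at 6 h was 0.245, next to 0.235 for the annotated introns with values in all 4 libraries. The 7.5 h replicates also lay farther apart: 48 of the 235 events differed by 0.1 or more between replicates at 7.5 h, against 20 at 6 h. No source used here gives the reads behind a PSI value, and without that depth no counting interval could be set.

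Retention of annotated introns was higher at 7.5 h for more introns than it was lower. Of the 235 events, 39 passed limma's moderated test on log2 odds at a Benjamini-Hochberg adjusted p under 0.05 (16.6%). PSI rose in 23 of them (9.79% of all events) and fell in 16 (6.81%). With 6 h replicate 1 left out 19 events were called, and with 6 h replicate 2 left out 22. A fit of only the 4 compared libraries kept 16 of the 39 calls, 9 rises and 7 falls. The falls kept included the 3 that were a single step of 0.01 in PSI, while the largest fall, in an unannotated GCR1 intron, was lost. Annotated introns supplied 18 rises and 5 falls out of 141, with a median PSI of 0.28 at 7.5 h and 0.235 at 6 h. Unannotated introns, whose median PSI was 0.98 at 7.5 h and 0.985 at 6 h, supplied 4 rises and 8 falls out of 75. Both 7.5 h values lay above both 6 h values in 67 events (28.5%) and below them in 44 (18.7%). The median difference was 0.02 over annotated introns and 0 over all 235 events. Rises were mostly large and falls mostly small: 19 of the 23 rises reached 0.1 in PSI, against 6 of the 16 falls, and 11 of the falls started from a PSI over 0.9 at 6 h.

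**Figure D1:**
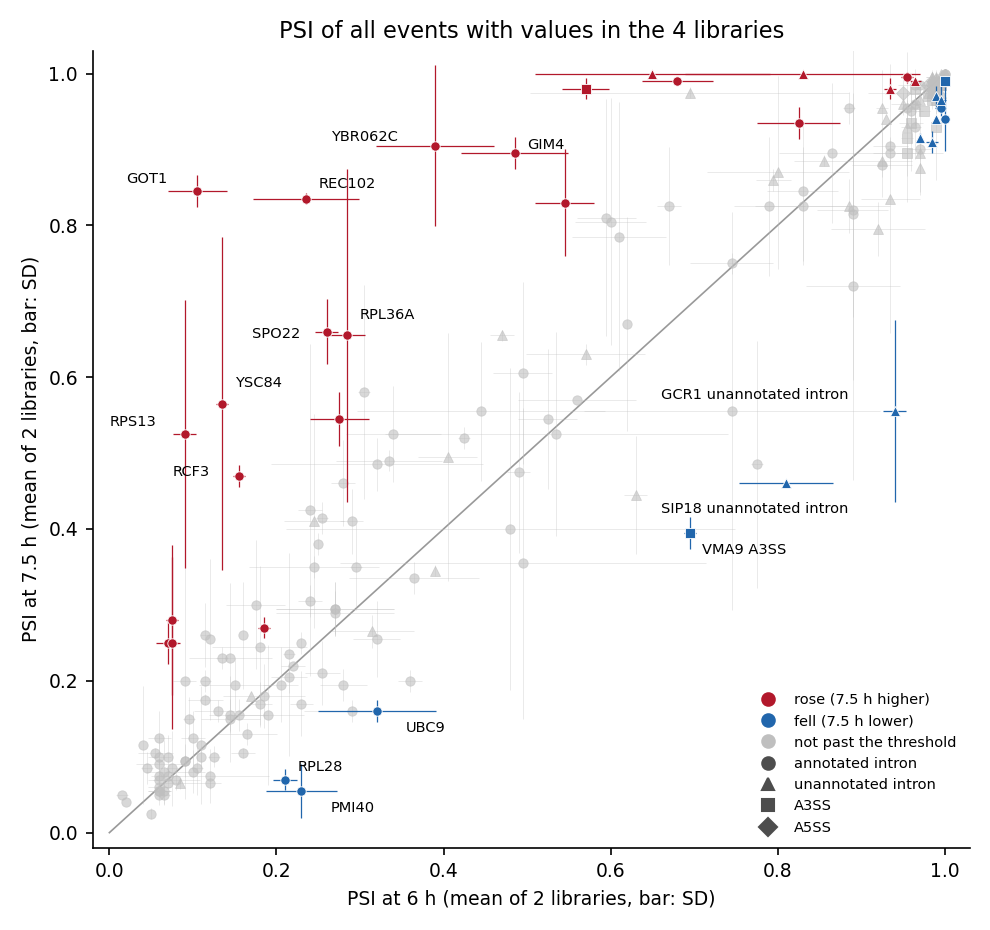
Mean PSI at 7.5 h (vertical axis) against mean PSI at 6 h (horizontal axis) for the 235 events, with bars for the SD of 2 libraries and the diagonal for equal values. Red marks the 23 rises, blue the 16 falls and grey the 196 events not past the threshold; most large rises start from a PSI under 0.5 at 6 h, while most falls crowd the upper right corner.

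Meiotic genes were considered first. SPO22 encodes a protein of the synaptonemal complex assembly pathway and is a Mer1 target. Its intron (chromosome IX, 225810 to 225899, minus strand) had a PSI of 0.63 and 0.69 at 7.5 h, against 0.25 and 0.27 at 6 h. The log2 odds were higher by 2.42 (SE 0.39, limma adjusted p = 0.00672), and the call held whichever of the 4 libraries was left out. REC102 encodes a protein needed to start meiotic recombination by DNA breaks. Its intron (XII, 786616 to 786712, plus strand) had a PSI of 0.84 and 0.83 at 7.5 h, against 0.19 and 0.28 at 6 h (adjusted p = 0.00672). Without 6 h replicate 1 the REC102 call was lost (adjusted p = 0.0512).

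The other meiotic introns with values in all 4 libraries did not pass. Of 5 events in the 4 Mer1 target genes, SPO22 alone was called, next to 16.6% of all events. AMA1, which encodes a meiotic activator of the anaphase-promoting complex, had 0.36 and 0.34 at 7.5 h, against 0.19 and 0.30 at 6 h (limma adjusted p = 0.2). REC107, whose product takes part in break formation, had 0.76 and 0.74 at 7.5 h, against 0.71 and 0.78 at 6 h (adjusted p = 1). HFM1, which encodes a meiotic DNA helicase, had 0.57 and 0.77 at 7.5 h, against 0.62 and 0.62 at 6 h (adjusted p = 0.772). Thus at 7.5 h the AMA1 values lay above both 6 h values, while those of REC107 and HFM1 overlapped them. The AMA1 A5SS event stood at 0.99 and 0.96 at 7.5 h, against 0.98 and 0.92 at 6 h (adjusted p = 0.62).

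Among the other meiotic genes, 4 of 10 events could be tested and REC102 alone was called, next to 16.6% of all events. SPO1, which encodes a phospholipase-like protein needed for meiotic divisions and spore formation, had 0.32 and 0.35 at 7.5 h, against 0.31 and 0.42 at 6 h (limma adjusted p = 0.775). SAE3, whose product helps the recombinase Dmc1, had 0.69 and 0.52 at 7.5 h, against 0.47 and 0.52 at 6 h (adjusted p = 0.408). HOP2, needed for pairing of homologous chromosomes, had 0.74 and 0.37 at 7.5 h, against 0.87 and 0.62 at 6 h (adjusted p = 0.499). The HOP2 replicates differed by 0.37 at 7.5 h, the widest gap of any event there. The remaining 6 events lacked a value at 7.5 h in at least one library. MEI4 had 0.79 in its single 7.5 h library with a value, against 0.45 and 0.47 at 6 h, and PCH2 had 0.3, against 0.22 and 0.22. DMC1 had 0.16 in its single 7.5 h library with a value, against 0.12 and 0.15 at 6 h. REC114, MND1 and the unannotated intron of HOP2 had no value at 7.5 h.

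The largest rise of all was in GOT1, whose product acts in transport between the endoplasmic reticulum and the Golgi. Its intron (XIII, 854817 to 854898, plus strand) had a PSI of 0.86 and 0.83 at 7.5 h, against 0.13 and 0.08 at 6 h. The log2 odds were higher by 5.39 (SE 0.69, limma adjusted p = 0.000326), and GOT1 was among the 5 rises called with each library left out and under every alternative in which they were tested. The other rises never lost were SPO22, the annotated APE2 intron and an APE2 A3SS event, which share a splice site, and an event in repeated ribosomal DNA. YBR062C (II, 366503 to 366584, minus strand) had 0.98 and 0.83 at 7.5 h, against 0.34 and 0.44 at 6 h (adjusted p = 0.00697). It was lost without 6 h replicate 1 (adjusted p = 0.0547) and in the fit of only the compared libraries (0.188). YSC84, which encodes an actin-binding protein of endocytosis, had 0.41 and 0.72 at 7.5 h, against 0.14 and 0.13 at 6 h (adjusted p = 0.00697, and 0.171 in the fit of only the compared libraries). In GOT1, YBR062C and YSC84, as in all 23 rises, both 7.5 h values lay above both 6 h values. The 7.5 h replicates of YSC84 were themselves far apart.

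Smaller rises came from genes of varied function. GIM4, which encodes a prefoldin subunit that helps fold actin and tubulin, had 0.91 and 0.88 at 7.5 h, against 0.44 and 0.53 at 6 h (limma adjusted p = 0.0296). RCF3, whose product associates with respiratory supercomplexes, had 0.48 and 0.46 at 7.5 h, against 0.15 and 0.16 at 6 h (adjusted p = 0.0296). Both fell short of the threshold whichever library was left out, up to an adjusted p of 0.145 for GIM4 and 0.124 for RCF3, and GIM4 also on untransformed PSI and in the fit of 12 time course libraries. NCE101, linked to non-classical protein export, had 0.52 and 0.57 at 7.5 h, against 0.30 and 0.25 at 6 h (adjusted p = 0.012). RRT8, which has a part in spore wall assembly, had 0.35 and 0.21 at 7.5 h, against 0.07 and 0.08 at 6 h (adjusted p = 0.00697). NCE101 was lost without 6 h replicate 2 or 7.5 h replicate 2 (up to 0.0905), and RRT8 without 6 h replicate 1 (0.0539). In the fit of only the compared libraries NCE101 (0.0556) and RRT8 (0.139) were also lost. An annotated intron beside MSS51, named by the gene that its flanking bases overlap, had 0.78 and 0.88 at 7.5 h, against 0.57 and 0.52 at 6 h (adjusted p = 0.0431), and was called in 1 of the 4 runs that left out a library and not in the fit of only the compared libraries (0.144).

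**Figure D2:**
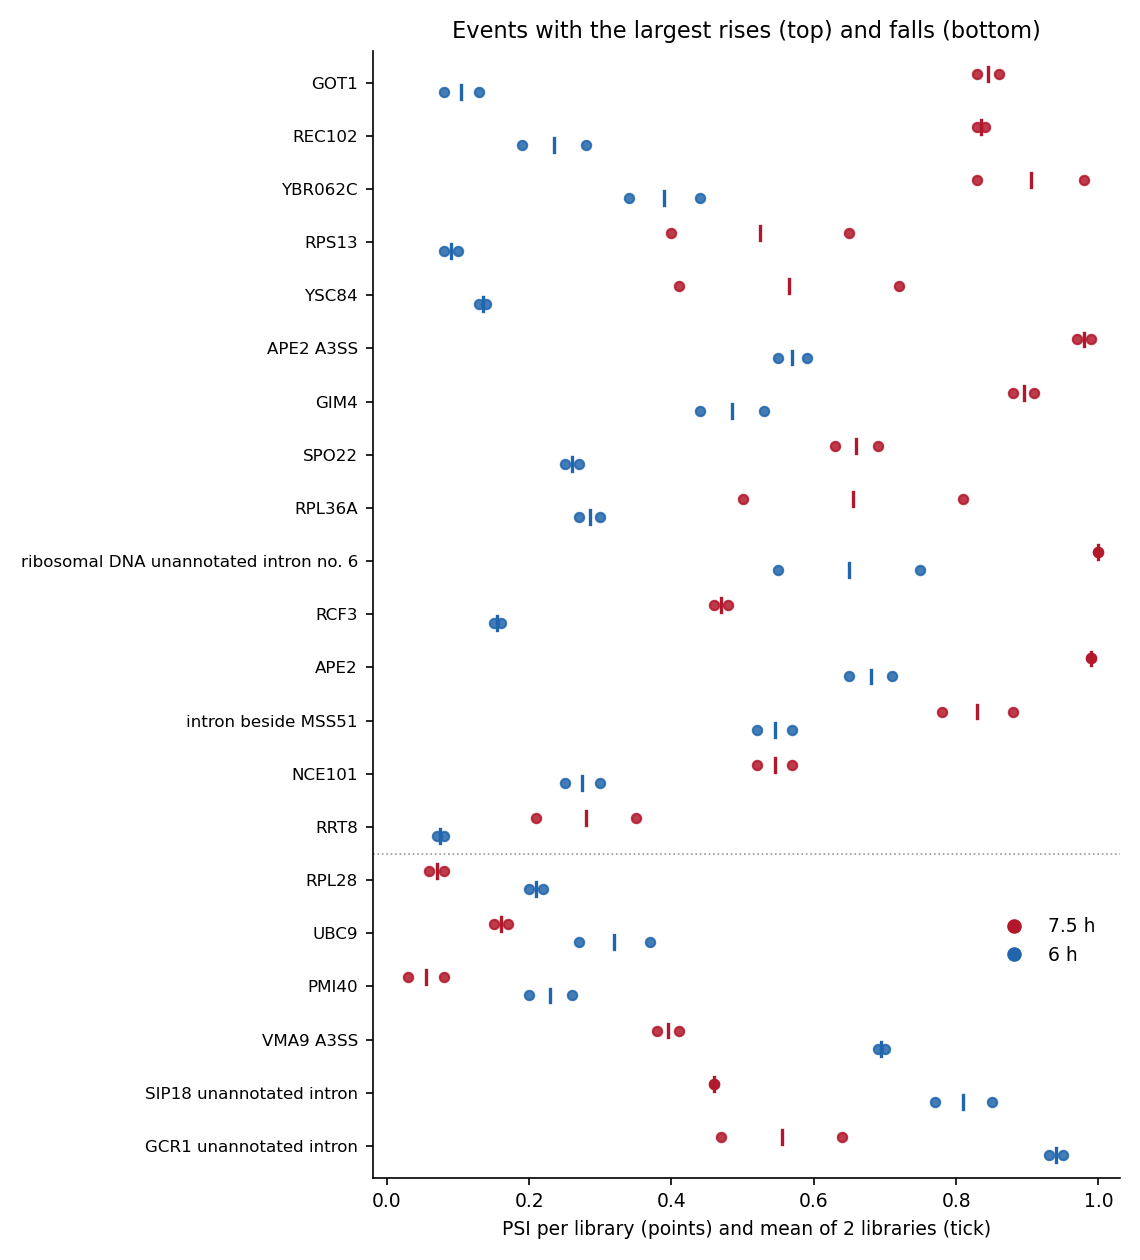
PSI in each library (points) with the mean of 2 libraries (tick) at 7.5 h (red, upper row of each pair) and at 6 h (blue, lower row) for the 15 largest rises, above the dotted line, and the 6 falls of 0.1 or more, below it. The 7.5 h and 6 h points do not overlap in any of the 21 events, as in all 23 rises and 16 falls called. The 7.5 h points of RPS13, YSC84 and RPL36A are the widest apart.

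Ribosomal protein genes came next. Of 69 events tested in them, 4 rose and 5 fell, where 9.79% of all events rose and 6.81% fell. Their median difference was 0.015, next to 0 over all 235 events. RPS13, of the small subunit, had a PSI of 0.40 and 0.65 at 7.5 h, against 0.10 and 0.08 at 6 h (IV, 579479 to 580017, plus strand, limma adjusted p = 0.00153). RPL36A, of the large subunit, had 0.50 and 0.81 at 7.5 h, against 0.27 and 0.30 at 6 h (adjusted p = 0.0229). RPS6A had 0.17 and 0.33 at 7.5 h, against 0.08 and 0.07 at 6 h (adjusted p = 0.0207). The RPS13 call held with each library left out, while RPL36A and RPS6A were each called in 1 of those 4 runs. In the fit of only the compared libraries all 3 were lost, with adjusted p of 0.119 for RPS13, 0.275 for RPL36A and 0.188 for RPS6A.

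The clearest fall among ribosomal protein introns was in RPL28. It had a PSI of 0.08 and 0.06 at 7.5 h, against 0.22 and 0.20 at 6 h (VII, 311016 to 311526, plus strand, limma adjusted p = 0.00672), and was lost without 6 h replicate 1 or 7.5 h replicate 2 (up to 0.0538). RPS22B, whose annotated intron lies beside a second, unannotated one, had 0.97 and 0.91 at 7.5 h, against 1 and 1 at 6 h (adjusted p = 0.0428, called in 1 of 4 runs that left out a library and 0.144 in the fit of only the compared libraries). The unannotated intron of RPS22B had 0.38 and 0.61 at 7.5 h, against 0.43 and 0.38 at 6 h (adjusted p = 0.927). Thus one intron of RPS22B passed and the other had overlapping groups. Restricted to the 53 annotated introns of ribosomal protein genes, 4 rose and 2 fell. Both 7.5 h values lay above both 6 h values in 25 of the 53 and below them in 5. Over all 141 annotated introns, 18 rose and 5 fell, and both values lay above in 55 and below in 18.

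Both copies of a duplicated ribosomal protein gene could be tested in 13 pairs. The copies share much of their coding sequence, so reads in exons may be split between them. RPS0B was the single called member of these pairs, with 0.92 and 0.95 at 7.5 h, against 0.79 and 0.86 at 6 h (limma adjusted p = 0.0207), while its copy RPS0A averaged 0.545 at 7.5 h and 0.525 at 6 h. Over all events 16.6% were called. The RPS0B call was lost without 6 h replicate 1 or 7.5 h replicate 2 (up to 0.161), on untransformed PSI and in the fit of only the compared libraries (0.173). In RPL34A the mean was 0.58 at 7.5 h and 0.305 at 6 h, and in RPL34B 0.26 at 7.5 h and 0.16 at 6 h, with neither past the threshold. RPL33A and RPL33B averaged 0.15 and 0.2 at 7.5 h, against 0.145 and 0.36 at 6 h, also not past. Whether the copies of a pair differed in their change was not tested.

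The largest fall was in an unannotated intron of GCR1, which encodes an activator of glycolytic genes. This intron (XVI, 412257 to 412995, plus strand) had a PSI of 0.64 and 0.47 at 7.5 h, against 0.93 and 0.95 at 6 h. The log2 odds fell by 3.46 (SE 0.41, limma adjusted p = 0.000206). The call held with each library left out and was lost in the fit of only the compared libraries (adjusted p = 0.0673). The annotated intron of GCR1, which overlaps nearly all of it, had 0.85 and 0.91 at 7.5 h, against 0.90 and 0.95 at 6 h (adjusted p = 0.387). The unannotated intron of SIP18, a gene induced by drying and salt stress, had 0.46 and 0.46 at 7.5 h, against 0.77 and 0.85 at 6 h (XIII, 610808 to 611036, plus strand, adjusted p = 0.00294). Its call also held with each library left out and was lost in the fit of only the compared libraries (adjusted p = 0.0673).

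Annotated introns that fell were RPL28, RPS22B, PMI40, UBC9 and YJR079W. PMI40, which encodes mannose-6-phosphate isomerase, had 0.08 and 0.03 at 7.5 h, against 0.26 and 0.20 at 6 h (limma adjusted p = 0.00187). UBC9, which encodes the conjugating enzyme for SUMO, had 0.15 and 0.17 at 7.5 h, against 0.37 and 0.27 at 6 h (adjusted p = 0.0207). YJR079W had 0.95 and 0.96 at 7.5 h, against 0.99 and 1 at 6 h (adjusted p = 0.00165). The PMI40 and YJR079W calls held with each library left out, while UBC9 was called in 1 of those 4 runs. In the fit of only the compared libraries PMI40 (0.162), YJR079W (0.144) and UBC9 (0.153) were lost. PMI40 and UBC9 thus had low retention that was lower still at 7.5 h, whereas YJR079W stood near the ceiling of PSI at both times.

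Falls near the ceiling of PSI were of a few hundredths. The unannotated intron of RSB1, which encodes a transporter of sphingoid bases, had 0.94 and 0.94 at 7.5 h, against 0.99 and 0.99 at 6 h (limma adjusted p = 0.000178). It was the single fall called with each library left out and under every alternative in which it was tested. The unannotated intron of NVJ2, whose product sits at nucleus-vacuole junctions, had 0.92 and 0.90 at 7.5 h, against 0.99 and 0.98 at 6 h (adjusted p = 0.00294, and 0.0673 in the fit of only the compared libraries). The unannotated intron of RPL30 had 0.98 and 0.95 at 7.5 h, against 0.99 and 1 at 6 h (adjusted p = 0.0134), and lost its call without 6 h replicate 2 or 7.5 h replicate 2 (up to 0.136), in the fit of 12 time course libraries and in that of only the compared libraries (0.275). Unannotated introns at chromosome XV, 373900 to 374122, and at XIV, 728555 to 728921, fell by 0.055 and by 0.02. The first was called in 2 of 4 runs that left out a library (up to 0.0687). The second was called in 1 of 4 (up to 0.0904) and was lost on untransformed PSI and in the fit of only the compared libraries (0.229). The RPL16B A3SS event, the APE2 unannotated intron and the first RPS0B A3SS event each fell by 0.01, a single step of the 2 decimals given, and all 3 calls were lost with an offset of 0.05 in the log2 odds and on untransformed PSI.

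Several called events shared a splice site, so they are not separate observations. In APE2, which encodes an aminopeptidase, the annotated intron (XI, 155272 to 155654, plus strand) had 0.99 and 0.99 at 7.5 h, against 0.65 and 0.71 at 6 h. An A3SS event from the same 5′ splice site had 0.97 and 0.99 at 7.5 h, against 0.59 and 0.55 at 6 h. Both had a limma adjusted p of 5.66e-06, the lowest of the 235 events, and both were called with each library left out. In VMA9, which encodes a subunit of the vacuolar proton pump, the annotated intron had 0.99 and 1 at 7.5 h, against 0.95 and 0.96 at 6 h (III, 107034 to 107110, plus strand, adjusted p = 0.000817, and 0.144 in the fit of only the compared libraries). The VMA9 A3SS event from the same 5′ splice site had 0.41 and 0.38 at 7.5 h, against 0.69 and 0.70 at 6 h (adjusted p = 0.0119, called in 1 of 4 runs that left out a library). Thus these 2 APE2 events moved the same way in PSI and the 2 VMA9 events moved opposite ways. The unannotated APE2 intron, which shares its 3′ end with the APE2 A3SS event, was called as a fall of 0.01. In RPS0B the annotated intron rose by 0.11, while the first A3SS event from the same 5′ splice site fell by 0.01. NCE101 also had an A3SS event that shared an end with its annotated intron, with 0.90 and 0.89 at 7.5 h, against 0.94 and 0.97 at 6 h (adjusted p = 0.131).

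Repeated sequence held 2 of the rises. All 8 events in ribosomal DNA spanned 9138 bases, next to a spacing of 9137 bases between the annotated copies of the repeat. Reads across such events cannot be assigned to 1 copy. One of them had 1 and 1 at 7.5 h, against 0.55 and 0.75 at 6 h (limma adjusted p = 0.000206), and another had 1 and 1 at 7.5 h, against 0.73 and 0.93 at 6 h (adjusted p = 0.0207). The second of these was called in 1 of 4 runs that left out a library (up to 0.163) and was lost with an offset of 0.05, on untransformed PSI and in the fit of only the compared libraries (0.144). Of 13 events in subtelomeric Y′ elements none passed limma's test, none had an unadjusted p under 0.05, and both 7.5 h values lay above both 6 h values in 3. With the 21 events in both kinds of repeat left out, 37 events were called.

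Of the housekeeping and regulated genes ACT1, DBP2, YRA1, HAC1, PTC7 and RPL30, only RPL30 had a called event, the fall in its unannotated intron given above. The introns of the others did not pass, where 16.6% of all events were called. Actin, ACT1, had a PSI of 0.06 and 0.07 at 7.5 h, against 0.07 and 0.07 at 6 h (limma adjusted p = 1). DBP2, which encodes an RNA helicase, had 0.42 and 0.50 at 7.5 h, against 0.27 and 0.29 at 6 h (adjusted p = 0.186). YRA1, an mRNA export factor, had 0.39 and 0.31 at 7.5 h, against 0.29 and 0.30 at 6 h (adjusted p = 0.62). The DBP2 and YRA1 values at 7.5 h lay above both 6 h values, and those of ACT1 did not. HAC1, whose intron is removed by Ire1 and tRNA ligase instead of the spliceosome, had 1 and 0.97 at 7.5 h, against 0.95 and 0.98 at 6 h (adjusted p = 0.629). PTC7, with an intron that can stay in a translated transcript, had 0.90 and 0.54 at 7.5 h, against 0.85 and 0.93 at 6 h (adjusted p = 0.286).

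By gene list, none of 13 regulated intron events rose and 3 fell (RPL28, the unannotated RPL30 intron and the unannotated GCR1 intron), with a median difference of -0.03 and 4 events at an unadjusted p under 0.05. Of 8 events in hosts of small nucleolar RNAs none rose and RPS22B fell, and 3 had an unadjusted p under 0.05. Of 7 cytoskeleton events YSC84 and TUB3 rose and none fell. TUB3, an alpha-tubulin, had 0.27 and 0.23 at 7.5 h, against 0.08 and 0.06 at 6 h (limma adjusted p = 0.0207), and was lost whichever library was left out (up to 0.12). None of 7 RNA processing events was called, and none had an unadjusted p under 0.05. Of 2 mitochondrial events QCR9, a subunit of respiratory complex III, rose, with 0.26 and 0.28 at 7.5 h, against 0.18 and 0.19 at 6 h (adjusted p = 0.0244, called in 1 of 4 runs that left out a library and 0.0522 in the fit of only the compared libraries). Of 5 events of the secretory pathway list NCE101 rose, and of 6 ubiquitin and proteasome events UBC9 fell. These counts stand beside 9.79% of all events that rose and 6.81% that fell. The lists do not hold every gene of a kind. GOT1 and RCF3, both called as rises, were in neither the secretory pathway list nor the mitochondrial list.

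**Figure D3:**
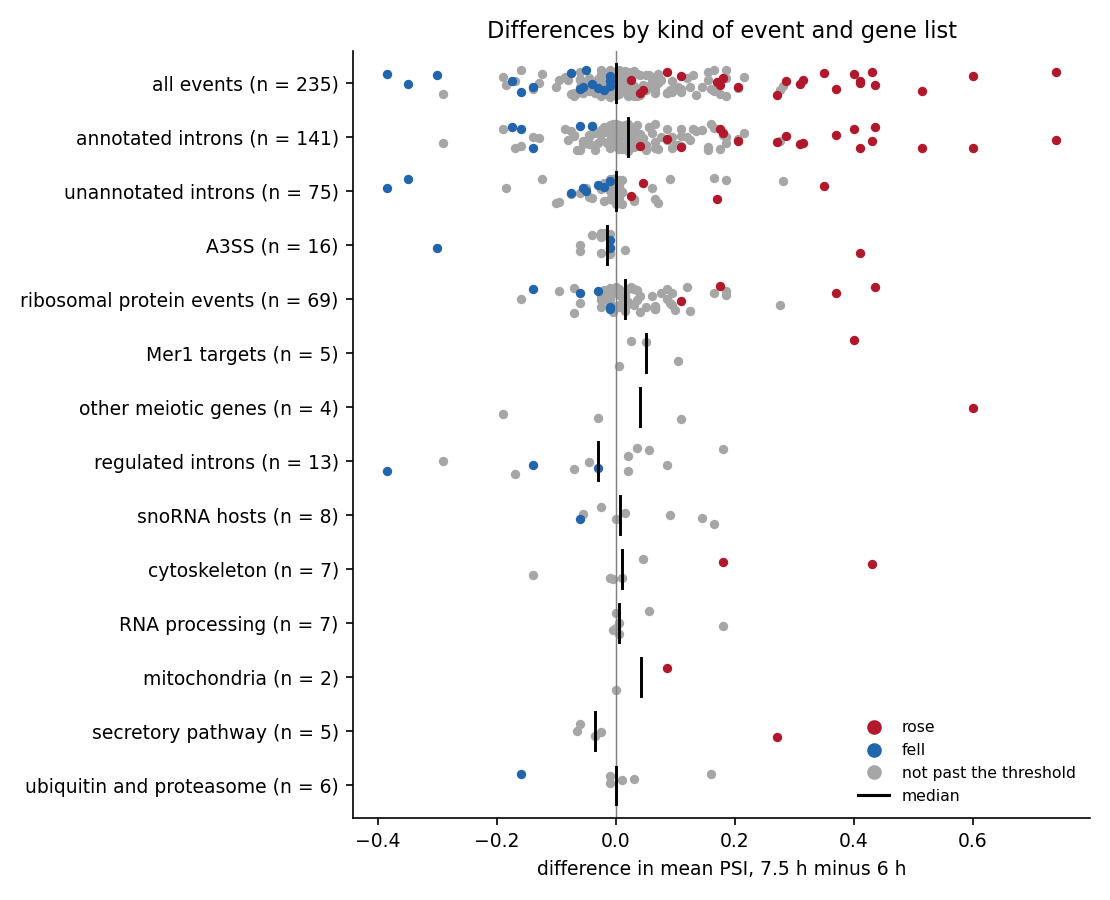
Difference in mean PSI, 7.5 h minus 6 h (horizontal axis), for each event by kind of event and by gene list, with rises in red, falls in blue, events not past the threshold in grey and the median as a black tick. An event can stand in several rows; the medians lie between -0.035 and 0.05 in every row, and rises reach 0.74, against -0.385 for the deepest fall.

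The annotated introns that rose tended to be short. Their median length was 129.5 bases, against 330 bases for annotated introns not past the threshold and 483 bases for the 5 that fell. Of the 18 rises, 11 were under 200 bases (61.1%, against 36.2% of those not past). None of the 51 annotated introns under 200 bases outside repeats was in a ribosomal protein gene. Outside those genes 11 of 51 introns under 200 bases rose and 2 fell, while 3 of 24 longer introns rose and 1 fell. Over all events 9.79% rose and 6.81% fell. Counted without the threshold, short introns did not lead in how often both 7.5 h values lay above both 6 h values. That was so in 17 of the 51 short introns and in 35 of 77 longer ones outside repeats. Among the 24 longer introns that were also outside ribosomal protein genes it was so in 10. By size of difference the order depended on the set and the measure. The median was 0.005 in PSI for short introns, 0.02 for the 77 and 0 for the 24. The mean was 0.0702 for short introns, 0.0469 for the 77 and 0.0354 for the 24. The lengths are a description and were not tested.

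For the called events, values at the other times were set beside the 6 h values. Of the 23 rises, 21 had both values at 8.5 h, and in 20 of these both lay above both 6 h values, the exception being the intron beside MSS51. At 12 h this held for 20 of 22, with the APE2 A3SS event and GIM4 the exceptions, and at 3 h for 3 of 22. At 0 h 15 of the rises had both values, of which 6 lay above both 6 h values and 2 below them. Of the falls, both values lay below both 6 h values in 14 of 15 at 8.5 h, in 6 of 15 at 12 h and in 3 of 16 at 3 h. At 0 h 2 of 15 falls lay below both 6 h values and 2 above them. These counts share the 6 h libraries with the comparison that chose the events, so they are not independent of it and do not bear on the calls. The same counts are not given for all 235 events. Median PSI over the tested events with a value was 0.59 and 0.62 at 6 h, and 0.68 and 0.7 at 7.5 h. It was 0.86 and 0.825 at 8.5 h, and 0.86 and 0.77 at 12 h. At 3 h it was 0.57 and 0.58, and at 0 h 0.77 and 0.7. These medians are over unlike sets: 235 events had a value in each 6 h library, against 197 and 202 at 8.5 h. For annotated introns these numbers were 141, against 107 and 114. Over annotated introns with a value the median was 0.24 and 0.22 at 6 h, and 0.27 and 0.31 at 7.5 h. It was 0.33 and 0.365 at 8.5 h, and 0.39 and 0.39 at 12 h. Whether called events stayed beyond their 6 h values more often than other events was not tested.

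SPO22 had 0.36 and 0.33 at 3 h, 0.25 and 0.27 at 6 h, 0.63 and 0.69 at 7.5 h, 0.91 and 0.83 at 8.5 h, and 0.97 and 0.95 at 12 h. YBR062C reached 0.96 and 0.98 at 8.5 h and 0.99 and 0.98 at 12 h. GOT1 went another way, with 0.37 and 0.43 at 8.5 h and 0.56 and 0.37 at 12 h, so that its 7.5 h values were its highest. SIP18 had 0.44 and 0.33 at 0 h, 0.58 and 0.64 at 3 h, 0.77 and 0.85 at 6 h, 0.46 and 0.46 at 7.5 h, 0.74 and 0.64 at 8.5 h, and 0.23 and 0.21 at 12 h. Its values thus moved up, down, up and down again over the course. UBC9 had 0.09 and 0.10 at 8.5 h but 0.36 and 0.29 at 12 h, overlapping its 6 h values.

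**Figure D4:**
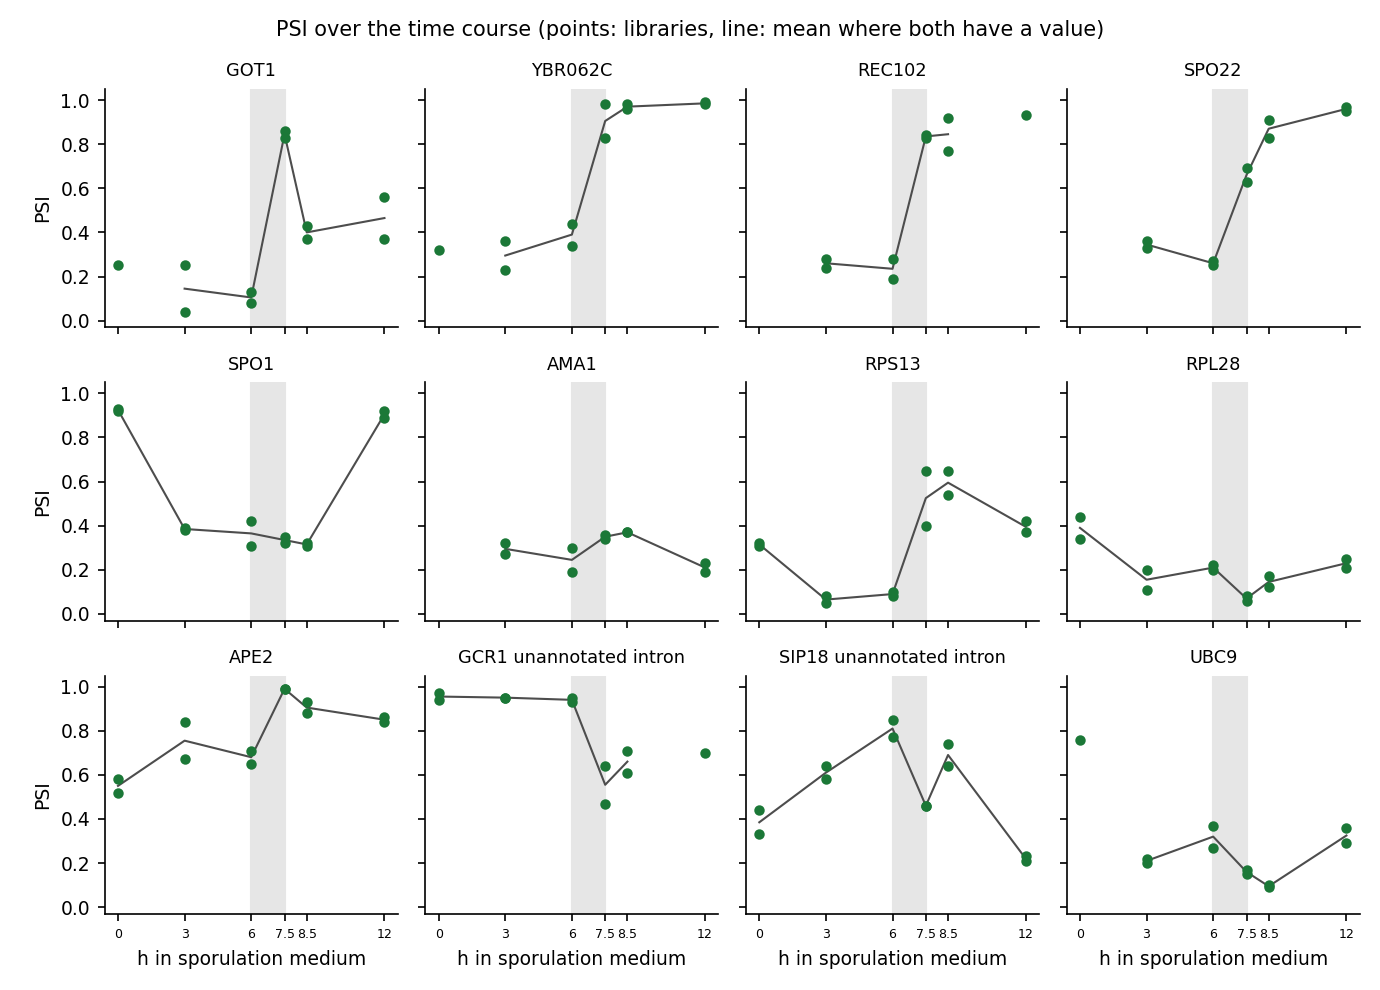
PSI (vertical axis) against hours in sporulation medium (horizontal axis) for 12 events, with a point for each library and a line through the means of times at which both libraries had a value. The grey band spans 6 h to 7.5 h; SPO22 and YBR062C stay high after 7.5 h, GOT1 peaks at 7.5 h, and SPO1 is low from 3 h to 8.5 h with high values at 0 h and 12 h.

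Whether the step to 7.5 h differed from other steps was tested with contrasts that share no library. Against the step from 0 h to 3 h, 32 of 204 events with values in all 8 libraries differed by limma's test (15.7%), 20 with a more positive step to 7.5 h and 12 with a more negative one. That count of 32 was 19 without 3 h replicate 1, 61 without 3 h replicate 2, 20 without 6 h replicate 1, 14 without 6 h replicate 2 and 17 without 7.5 h replicate 2. Against the step from 8.5 h to 12 h, 54 of 181 differed (29.8%), 18 more positive and 36 more negative. RPS13 was higher by 0.435 at 7.5 h than at 6 h, whereas its PSI at 3 h was lower by 0.25 than at 0 h (difference of steps 5.95 log2 odds, SE 0.77, adjusted p = 0.00042). GOT1 was higher by 0.74 at 7.5 h than at 6 h, next to 0.065 between 12 h and 8.5 h (difference of steps 5.02 log2 odds, SE 0.98, adjusted p = 0.00315). For SPO22 the step to 7.5 h was 0.4 and the step to 12 h was 0.09, which did not differ past the threshold on the log2 odds scale (adjusted p = 0.323).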

How the data were processed

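PSI values had been deposited by the authors as a fraction per event and library. Per the submitters' processing notes, the Ribo-Zero reads were aligned with TopHat2 and Bowtie to sacCer3; the tool that made PSI is not given in the sources used here. Reads from repeated sequence cannot be assigned to a single copy, which bears on ribosomal DNA, Y′ elements and paired gene copies. Genes were named from event coordinates on the RefSeq table of the same assembly, which gave a gene to 375 of 405 events, 20 of them through flanking bases only.

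Tests used the log2 odds of each value, log2((PSI + 0.01)/(1 − PSI + 0.01)). A mean for each of 10 groups was fitted over 20 Ribo-Zero libraries with the moderated test of limma 3.58.1 (R 4.3.3), two-sided, with Benjamini-Hochberg adjustment over all events with values in the libraries compared, and checked on simulated data. Tables and plots used pandas 2.3.3 and matplotlib 3.10.9. Adjusted p-values in the text are limma's. With 2 libraries per group, exact permutation tests of single events cannot reach the threshold and were not run. Each SD measures the spread between 2 libraries. The p-values instead rest on a spread within groups taken over up to 20 Ribo-Zero libraries and moderated across events. Replicates far apart in 1 group can thus still give a small p.

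Events named in the text are up to 15 rises and 15 falls with the largest called differences, every testable meiotic event, ACT1, SUS1, YRA1, DBP2, PTC7, HAC1 and RPL30 events, and the 5 events with the smallest p in each contrast of steps. SUS1 had no event with values in all 4 libraries. Other events given with values (TUB3, RPS6A, RPS0B, QCR9, VMA9, the first RPS0B A3SS, the second ribosomal DNA event, untested meiotic events, paired copies and the other events of genes with called ones) were chosen after their values were seen. The members and gene lists were chosen with earlier results of these data known. Alternatives changed the offset, the scale, the libraries in the fit, the moderation, the events tested and a replicate block, and left out each library in turn; leaving out repeats was added after seeing the data. Splice-site sequences were not analysed here.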

Additional observations from a re-analysis of the deposited data

Results flagged for a closer look

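Events whose step from 6 h to 7.5 h differed from another step of the course were picked out as the 5 with the smallest p in each contrast, by limma's test of the difference itself. Values are differences of steps in log2 odds, and no explanation was tested. Against the step from 0 h to 3 h, RPS13 differed by 5.95, the APE2 A3SS event by 5.47 and a ribosomal DNA event by 6.36. SPO1 differed by 3.95, with a PSI of 0.32 and 0.35 at 7.5 h, against 0.31 and 0.42 at 6 h, and of 0.39 and 0.38 at 3 h, against 0.92 and 0.93 at 0 h. The unannotated intron of SIP18 differed by -3.6, with PSI lower by 0.35 at 7.5 h than at 6 h and higher by 0.225 at 3 h than at 0 h. Against the step from 8.5 h to 12 h, the annotated APE2 intron differed by 5.31 and its A3SS event by 6.28. SPO1 differed by -4.41 and HNT1, which encodes a nucleotide hydrolase, by -3.53. HNT1 had 0.10 and 0.06 at 7.5 h, against 0.11 and 0.09 at 6 h, and 0.71 and 0.67 at 12 h, against 0.21 and 0.17 at 8.5 h. YJR079W differed by -7.2, with 0.99 and 0.99 at 12 h, against 0.57 and 0.59 at 8.5 h. Thus the SPO1, HNT1 and YJR079W contrasts rest mainly on the step to 12 h.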

How the results depend on the processing

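The 39 calls became 28 to 41 under the other offsets, scale, fits and moderations, 29 with mean PSI from 0.05 to 0.95, 37 without repeats and 22 among annotated introns only, and 19 to 44 when a library was left out. Rises numbered 23, against 15 in a fit of only the compared libraries, 14 with the replicate block and 10 to 24 with a library left out. Falls numbered 16, against 9 with mean PSI from 0.05 to 0.95, 5 among annotated introns and 9 to 20 with a library left out. Of the 39 calls, 18 remained without 6 h replicate 1, 22 without 6 h replicate 2, 32 without 7.5 h replicate 1 and 21 without 7.5 h replicate 2; 16 remained in the fit of only the compared libraries, which lost 14 rises and 9 falls. With each library left out in turn, 8 rises and 7 falls were called every time. Replicate numbers did not pair the samples (deviation correlation between 7.5 h and 6 h 0.035, and -0.345 to 0.257 over 15 pairs of times); the replicate block called 28 events, 27 of them among the 39. Events against the step from 0 h to 3 h numbered 32, against 14 in the fit of 12 time course libraries, 10 in that of only the compared libraries, 18 among annotated introns, 17 with the replicate block and 14 to 61 with a library left out (61 without 3 h replicate 2, 14 without 6 h replicate 2). Those against the step from 8.5 h to 12 h stayed within 1.5 times of 54. Signs turned with a library left out, over ranges in log2 odds of -0.23 to 0.29 in REC107 (-0.05 in another run), -0.51 to 0.16 in SPO1, -0.08 to 1.59 in the AMA1 A5SS event, -0.29 to 1.01 in HFM1 and -2.76 to 0.06 in PTC7, none of them called. Over all named events and alternatives, 783 of 918 values kept direction and side, 128 kept direction but lost the call, and 1 gained it. The cause was not tested. A left-out run leaves 1 library in a group, assumed to vary like the others. The unknown depth limits how far small differences near the floor and ceiling can be read.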

Other observations

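Some differences were as large as called ones but did not pass limma's test, and were chosen here after their values were seen. An unannotated intron beside ARF2 had 0.98 and 0.97 at 7.5 h, against 0.56 and 0.83 at 6 h (adjusted p = 0.0592). BUD25 had 0.60 and 0.37 at 7.5 h, against 0.78 and 0.77 at 6 h, and UBC13, which encodes a ubiquitin-conjugating enzyme of DNA repair, had 0.43 and 0.40 at 7.5 h, against 0.25 and 0.26 at 6 h (adjusted p = 0.0592 for both). TEF4, a translation elongation factor gene, had 0.29 and 0.23 at 7.5 h, against 0.11 and 0.12 at 6 h (adjusted p = 0.0763). In each of these the groups did not overlap.

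DBP2, which did not pass between 7.5 h and 6 h, had 0.79 and 0.89 at 8.5 h and 0.26 and 0.30 at 12 h. Its step to 7.5 h differed from its step to 12 h by 4.82 log2 odds (SE 0.73, limma adjusted p = 0.000561).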
